A study of Saccharomyces cerevisiae with 6 samples.

Results

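The genes described here build the wall of the budding yeast Saccharomyces cerevisiae or signal its state. They were taken as 36 named genes, each read by the brightest probe set that names it alone, and all 36 were measured among 5551 tested genes. They fall into 13 signalling genes (sensors, exchange factors, a GTPase, kinases and a transcription factor), 15 genes for glucan and chitin enzymes and their helpers, and 8 genes for wall and surface proteins. The yeast wall is a network of glucan and chitin that carries an outer coat of mannoproteins. When the wall is stretched or weakened, and when cells are moved to a higher temperature, plasma membrane sensors activate the GTPase Rho1 through the exchange factors Rom1 and Rom2. Rho1 stimulates glucan synthase and the kinase Pkc1, which drives a cascade of Bck1, Mkk1 and Mkk2, and Slt2. Slt2 then activates the transcription factor Rlm1 and, with it, genes of wall assembly.

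RNA was read on 6 arrays, 1 per strain at each of 60, 90 and 120 min after cultures in YPD were moved from 30 to 37 °C. Both strains were MATa with the alleles leu2∆1, his3∆200 and trp1∆63, besides ade2-101, ura3-52 and lys2-801, and with the chromosomal copy of TRA1 disrupted (tra1::HIS3). Strain MDC1, called wild type here, had TRA1 on a centromeric LEU2 plasmid, and strain MDC3 had the temperature-sensitive allele tra1-2ts on the same kind of plasmid. Tra1 is held in common by the coactivator complexes SAGA and NuA4. The 3 times serve as the replicates of a strain. The labels do not state whether separate cultures were used for each time, and the p-values therefore reflect only the scatter of these arrays. In the strain test this scatter includes the change between 60 and 120 min, and the rest of it may be technical. None of the 6 arrays was at 30 °C, so whether a difference existed before the shift could not be tested.

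Values are log2 signals after RMA, and differences are tra1-2ts minus wild type on that scale. A gene was called when limma's adjusted p over all tested genes was under 0.05. The RNA came from whole cultures, so a lower share of cells that express a gene and less of its RNA per cell cannot be told apart. Array medians lay between 6.14 and 6.20. The TRA1 probe set, which does not tell the alleles apart, read 8.10, 8.55 and 8.68 in wild type and 9.35, 9.38 and 9.38 in tra1-2ts at 60, 90 and 120 min, and so does not check the labels. As markers of mating type, MFA1 averaged 8.11 in wild type and 9.76 in tra1-2ts and MFA2 11.56 and 12.96, while the alpha-cell gene STE3 averaged 3.50 and 3.73, under the brightest mouse control probe set (3.93). The alpha-cell genes MF(ALPHA)1 and SAG1 read above that control and were higher in tra1-2ts too, with means of 5.15 in wild type and 5.59 in tra1-2ts (limma adjusted p = 0.0156) and of 6.23 and 6.72 (0.00599). All 36 cell wall genes averaged above it in both strains.

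Of the 8 wall and surface proteins 4 were higher in tra1-2ts and none was lower, and of the 15 glucan and chitin enzymes 4 were higher and 3 lower. Of the 36 genes, 15 were called, 11 higher and 4 lower. That is 41.7%, against 40.6% of all tested genes, so the number of calls does not set the list apart. By direction, in the values as deposited, 30.6% of the list was higher against 18.3% of all genes, and 11.1% was lower against 22.3%. The median difference was 0.11, against 0.0011 over all genes. The higher genes were WSC4, ROM2, PKC1, EXG1, SCW4, SCW10, CRH1, PIR3, PST1, ECM33 and YPS1, and the lower ones RLM1, CHS7, GAS3 and GAS5. SCW10 and PST1 alone in the list passed 2-fold, both upward, where 2.43% of all genes passed it upward and 2.92% downward. In 18 of the 36 genes (50%) the 3 arrays of one strain lay wholly outside those of the other, 14 higher and 4 lower, against 53.8% of all genes (26.1% higher and 27.7% lower). The difference had 1 sign at all 3 times in 27 of the 36 genes (75%), against 69.1% of all genes.

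**Figure D1:**
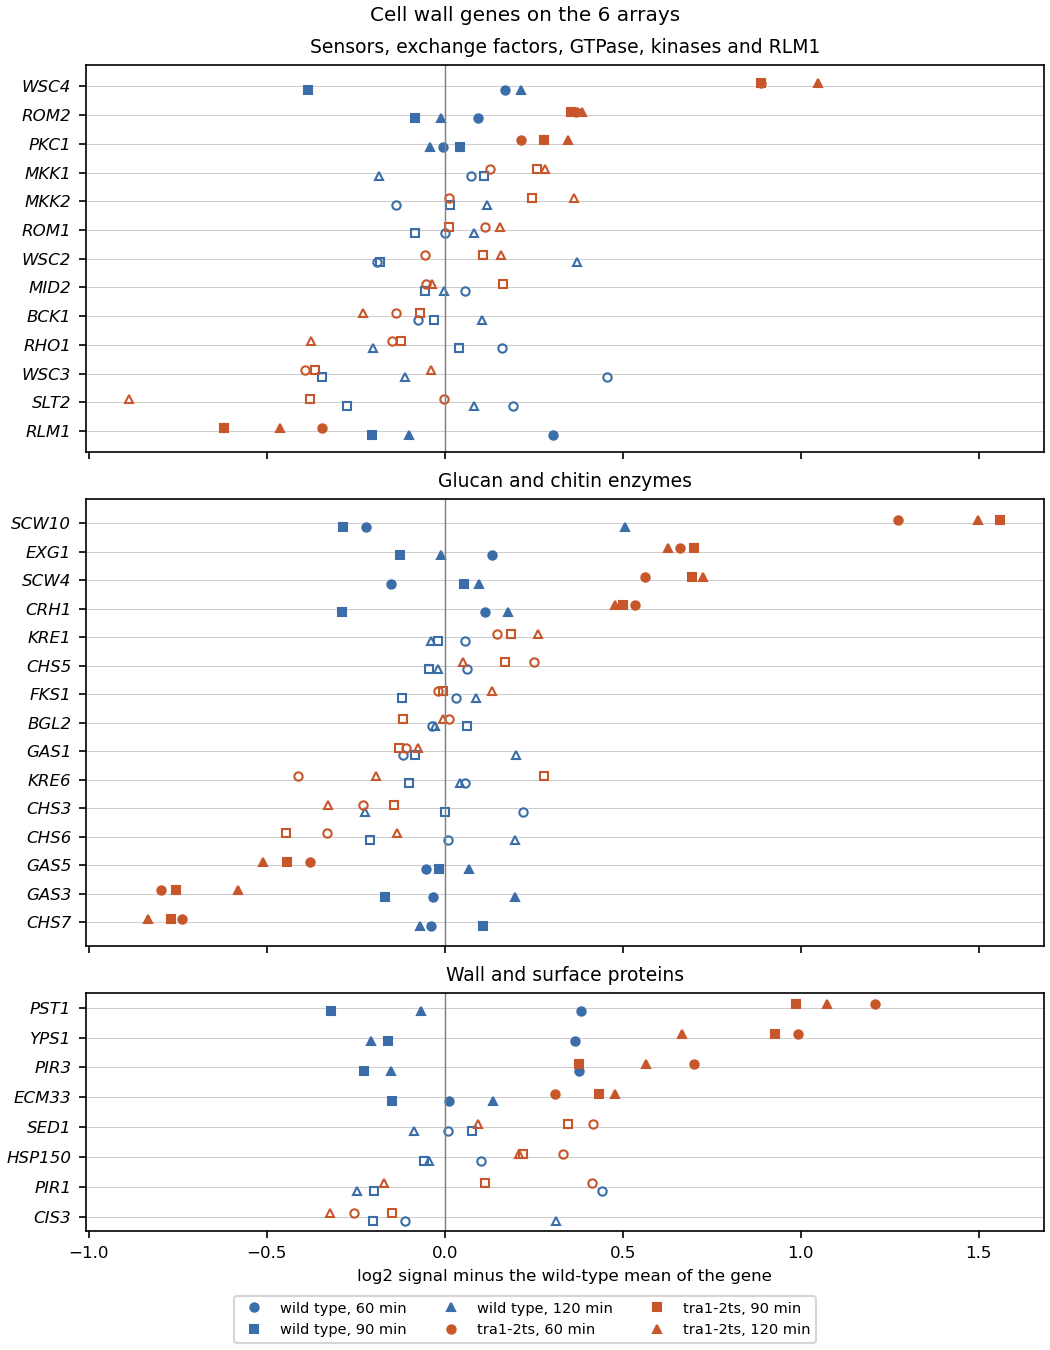
Log2 signal of each of the 36 genes on the 6 arrays, drawn as the difference from that gene's wild-type mean (x axis, log2 units), with 1 row per gene and 1 panel per class. Blue is wild type and orange tra1-2ts, circles, squares and triangles are 60, 90 and 120 min, and filled symbols mark the 15 genes that passed the strain test. The orange points of SCW10, PST1 and WSC4 lie to the right of all their blue points, and those of CHS7, GAS3 and GAS5 to the left.

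Among the 3 classes, the wall and surface proteins had the highest median difference, 0.35 over 8 genes. Of these 8, 4 were called higher and none lower. Positive differences made up 7 of the 8 (87.5%), against 50.1% of all genes. At 60, 90 and 120 min the median of these 8 genes was 0.31, 0.45 and 0.30. The 14 further wall and surface genes described below had a median of 0.07. The 15 enzyme genes held 4 calls higher and 3 lower, with a median of -0.04 and differences from -0.78 to 1.44. The 13 signalling genes held 3 calls higher and 1 lower, with a median of 0.07 and differences from -0.48 to 0.94. Per class, the share called was 50%, 46.7% and 30.8%, against 40.6% of all genes. Whether the classes differ was not tested.

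The sensors Wsc2, Wsc3, Wsc4 and Mid2 are plasma membrane proteins with heavily mannosylated outer parts. WSC4 read 4.52, 3.97 and 4.57 in wild type at 60, 90 and 120 min and 5.24, 5.24 and 5.40 in tra1-2ts. Each tra1-2ts array was above all 3 wild-type arrays, and the wild-type 90 min array, the lowest, was near the brightest mouse control (3.93), so the fold depends on the background there. The difference was 0.94 ± 0.16 (SE; n = 3 arrays per strain), or 1.92-fold, with a limma adjusted p of 0.00192. WSC2 averaged 7.15 ± 0.32 and 7.22 ± 0.11 (SD, n = 3) and MID2 6.83 ± 0.06 and 6.85 ± 0.12 in wild type and tra1-2ts, with 95% intervals for the difference of -0.28 to 0.42 and -0.19 to 0.24. WSC3 read 5.06, 4.26 and 4.49 in wild type and 4.21, 4.24 and 4.56 in tra1-2ts, so the strains overlapped and were 0.85 apart at 60 min alone. SLG1, which encodes the related sensor Wsc1 and was not among the 36, was lower in tra1-2ts by 0.39 ± 0.09 (limma adjusted p = 0.00741). MTL1, the relative of MID2, averaged 3.56 and 3.68, under the brightest mouse control and above the mean of the 4 mouse controls (3.26).

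Downstream of the sensors, ROM2, the exchange factor gene, read 6.77, 6.60 and 6.67 in wild type and 7.05, 7.03 and 7.06 in tra1-2ts. The tra1-2ts arrays, with an SD of 0.02, all lay above wild type, with a difference of 0.37 ± 0.09 (limma adjusted p = 0.0094). Its relative ROM1 averaged 5.09 and 5.18 and did not pass (interval -0.11 to 0.30). RHO1, the GTPase, averaged 10.19 ± 0.19 in wild type and 9.97 ± 0.14 in tra1-2ts and did not pass (adjusted p = 0.184), although it was the lower of the pair at all 3 times. The call of ROM2 ended when both 90 min arrays were left out (adjusted p = 0.123) or both 120 min arrays (0.0589).

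In the kinase cascade, with RLM1, the mean differences ran from -0.48 to 0.28. PKC1, the kinase that Rho1 binds, read 5.28, 5.33 and 5.25 in wild type and 5.50, 5.57 and 5.63 in tra1-2ts, which does not overlap, and was higher by 0.28 ± 0.08 (1.21-fold, limma adjusted p = 0.0285). The MAP kinase kinase genes MKK1 and MKK2 differed by 0.22 and 0.21 and BCK1, the kinase above them, by -0.15, and none of the 3 passed, with adjusted p of 0.127, 0.189 and 0.241. SLT2, the MAP kinase gene, read 9.36, 8.89 and 9.25 in wild type and 9.16, 8.79 and 8.28 in tra1-2ts. The tra1-2ts array was lower by 0.19 at 60 min, 0.10 at 90 min and 0.97 at 120 min, and the mean difference of -0.42 did not pass (interval -0.91 to 0.07, adjusted p = 0.149). RLM1, the transcription factor gene, read 8.84, 8.33 and 8.44 in wild type and 8.19, 7.92 and 8.08 in tra1-2ts. All tra1-2ts values were under all wild-type values, with a difference of -0.48 ± 0.14 (1.39-fold lower, limma adjusted p = 0.0273).

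The calls of PKC1 and RLM1 did not hold in several fits with 1 array left out. Over the fits with 1 array left out the PKC1 difference ran from 0.25 to 0.31. That of RLM1 ran from -0.58 to -0.32. Calls over all genes also fell in these fits, from 2251 to between 1561 and 2214. PKC1 had an adjusted p of 0.0513, 0.0515 and 0.0693 on leaving out wild type at 60, 90 and 120 min, and of 0.0952 and 0.0936 on leaving out tra1-2ts at 90 and 120 min. RLM1 had 0.0527 on leaving out wild type at 60 min, 0.105 and 0.0615 on leaving out tra1-2ts at 90 and 120 min, and 0.0687 after quantile normalization over the tested genes. SLT2 passed without the tra1-2ts 60 min array (difference -0.63, adjusted p = 0.0367).

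Of the glucan and chitin genes, SCW10, SCW4 and EXG1 were higher in tra1-2ts, while BGL2 was not called. SCW10 encodes a wall protein related to glucanases. It read 9.48, 9.41 and 10.20 in wild type and 10.97, 11.26 and 11.19 in tra1-2ts, so the strains were 1.49, 1.85 and 0.99 apart at 60, 90 and 120 min. The difference was 1.44 ± 0.20 (2.72-fold, limma adjusted p = 0.000802), and the other SCW10 probe set, which averaged 4.62 in wild type and 5.83 in tra1-2ts, differed by 1.20. Its relative SCW4 read 11.45, 11.65 and 11.69 in wild type and 12.16, 12.29 and 12.32 in tra1-2ts, higher by 0.66 ± 0.10 (1.58-fold, adjusted p = 0.00125). EXG1, the main exoglucanase gene, read 10.89, 10.63 and 10.75 in wild type and 11.42, 11.45 and 11.38 in tra1-2ts, higher by 0.66 ± 0.10 (adjusted p = 0.00097). In SCW4 and EXG1, as in SCW10, no tra1-2ts array reached down to the wild-type range. BGL2, the gene of another wall glucanase, averaged 11.37 and 11.33, and its interval of -0.23 to 0.16 leaves out differences of the size seen in the other 3.

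Genes of enzymes that elongate or cross-link glucan passed in both directions. CRH1, a transglycosylase gene whose product joins chitin to glucan, read 10.99, 10.59 and 11.06 in wild type and 11.41, 11.38 and 11.36 in tra1-2ts, and was higher by 0.50 ± 0.13 (1.42-fold, limma adjusted p = 0.0133). Its tra1-2ts arrays had an SD of 0.03 and those of wild type 0.25, with the 90 min array the lowest. GAS1, GAS3 and GAS5 belong to the family of GPI-anchored glucan-elongating enzymes. GAS3 read 8.08, 7.94 and 8.31 in wild type and 7.31, 7.36 and 7.53 in tra1-2ts, lower by 0.71 ± 0.12 (1.64-fold, adjusted p = 0.00175). GAS5 read 10.65, 10.69 and 10.77 in wild type and 10.33, 10.26 and 10.20 in tra1-2ts, lower by 0.44 ± 0.09 (adjusted p = 0.00394). GAS1, the best-studied of the family, averaged 12.15 ± 0.17 and 12.04 ± 0.03 and did not pass (interval -0.34 to 0.14). FKS1, the glucan synthase subunit gene, averaged 10.21 ± 0.11 and 10.25 ± 0.08 and did not pass (interval -0.18 to 0.25). With both 90 min arrays left out the calls of CRH1 (adjusted p = 0.101) and GAS5 (0.0624) ended.

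KRE1 and KRE6 serve the making of the branched glucan that holds wall mannoproteins. KRE1 read 10.58, 10.50 and 10.48 in wild type and 10.67, 10.71 and 10.78 in tra1-2ts, without overlap, yet the difference of 0.20 ± 0.08 did not pass (limma adjusted p = 0.0927; 0.0424 after quantile normalization over the tested genes). KRE6 read 7.79, 7.63 and 7.77 in wild type and 7.32, 8.01 and 7.54 in tra1-2ts, so its strain difference changed sign between times.

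Of the chitin genes in the list, CHS7 passed. Chs7 is the helper that lets the chitin synthase Chs3 leave the endoplasmic reticulum. CHS7 read 8.64, 8.79 and 8.61 in wild type and 7.94, 7.91 and 7.84 in tra1-2ts. The strains were 0.70, 0.88 and 0.76 apart at 60, 90 and 120 min, with a mean difference of -0.78 ± 0.09 (1.72-fold lower, limma adjusted p = 0.000368). CHS3 itself averaged 8.62 ± 0.22 and 8.39 ± 0.09 and did not pass (adjusted p = 0.162; 0.0459 without the wild-type 120 min array). CHS5 and CHS6 encode parts of the coat that carries Chs3 from the Golgi to the surface. CHS5 differed by 0.16 (interval -0.05 to 0.36) and CHS6 by -0.30 ± 0.13 (adjusted p = 0.0908), and CHS6 passed in the fit paired by time (0.0229) and without the wild-type 90 min array (0.0434).

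Among the wall proteins, PST1 had the largest difference. PST1 and ECM33 encode related GPI-anchored glycoproteins, and PST1 is a well-known target of Rlm1. PST1 read 10.88, 10.18 and 10.43 in wild type and 11.70, 11.48 and 11.57 in tra1-2ts. Every tra1-2ts array was above every wild-type array, and the difference was 1.09 ± 0.17 (2.13-fold, limma adjusted p = 0.00127). ECM33 read 12.60, 12.45 and 12.73 in wild type and 12.90, 13.03 and 13.07 in tra1-2ts, higher by 0.41 ± 0.10 (adjusted p = 0.0131). YPS1, the gene of the yapsin protease that trims surface proteins, read 10.00, 9.48 and 9.43 in wild type and 10.63, 10.56 and 10.30 in tra1-2ts, higher by 0.86 ± 0.16 (1.82-fold, adjusted p = 0.00341). YPS1 and ECM33 lost their calls with both 90 min arrays left out (adjusted p = 0.0583 and 0.159), and ECM33 also without the tra1-2ts 90 min array (0.0556).

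PIR1, PIR3, HSP150 and CIS3 encode the wall proteins with internal repeats, which bind glucan directly. PIR3 read 9.64, 9.03 and 9.11 in wild type and 9.96, 9.64 and 9.82 in tra1-2ts. At each time tra1-2ts was higher, though its 90 min array stood level with the wild-type 60 min array, and the difference was 0.55 ± 0.16 (1.46-fold, limma adjusted p = 0.0277). This call ended on leaving out the 90 or 120 min array of wild type (adjusted p = 0.0908 and 0.0805) or the 60 or 120 min array of tra1-2ts (0.0867 and 0.0679). HSP150 read 12.46, 12.30 and 12.31 in wild type and 12.69, 12.58 and 12.57 in tra1-2ts, a difference of 0.25 ± 0.09 that did not pass (0.0518). PIR1 averaged 11.20 ± 0.38 and 11.32 ± 0.29 and CIS3 12.62 ± 0.27 and 12.38 ± 0.09, and neither passed (0.672 and 0.192). SED1, the gene of an abundant GPI wall protein, read 13.06, 13.12 and 12.96 in wild type and 13.47, 13.39 and 13.14 in tra1-2ts, a difference of 0.29 ± 0.11 (0.0638). HSP150 and SED1 passed in the fit paired by time, with the replicate number as a block (adjusted p = 0.0386 and 0.035), after quantile normalization (0.0159 and 0.0154) and with arrays centred on their medians (0.0295 and 0.0297). HSP150 also passed on leaving out wild type at 60 min (0.0349) and SED1 on leaving out tra1-2ts at 120 min (0.0264).

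The wild-type 90 min array was the lowest of the 6 in 13 of the 36 genes and in 8 of the 11 called higher (72.7%), against 32.7% of all genes called higher. Without that array 9 genes of the list were called higher and 5 lower, where the count over all genes went from 2251 to 1819. Without both 90 min arrays 5 were called higher and 2 lower, and the count over all genes was 1004. The part of the wild-type 90 min array in each difference was not tested beyond these values.

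**Figure D2:**
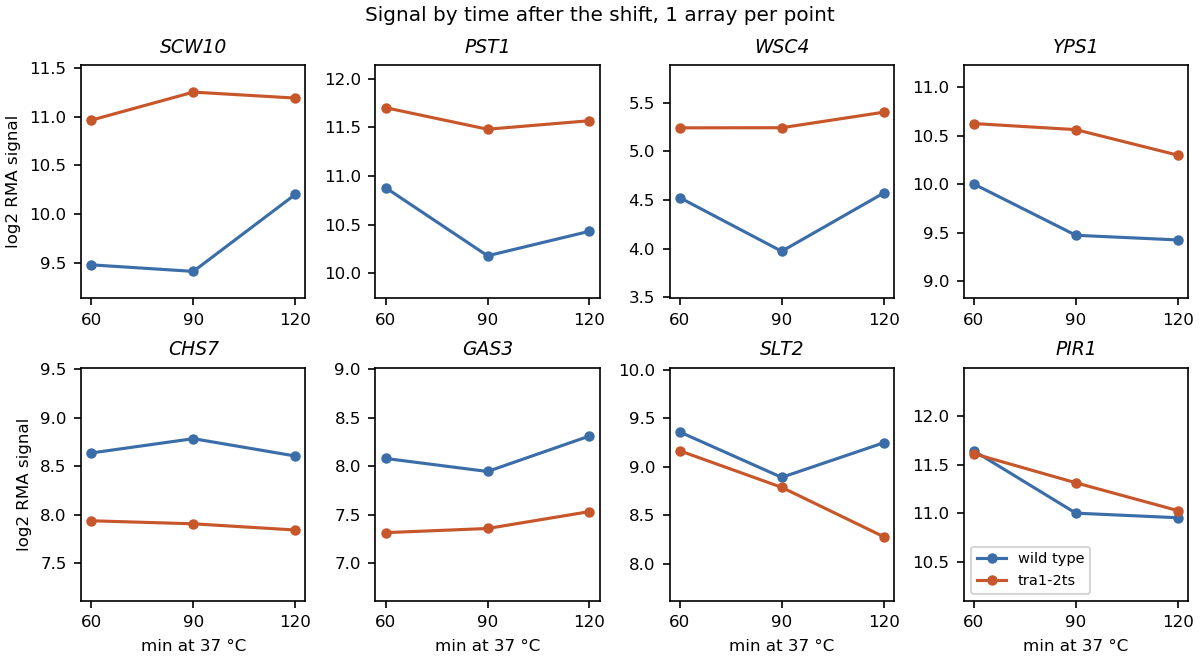
Log2 RMA signal (y axis, each panel spanning the same number of log2 units) against min at 37 °C (x axis) for 8 genes, with wild type in blue and tra1-2ts in orange, 1 array per point. The lines of SCW10, PST1, WSC4, YPS1, CHS7 and GAS3 stay apart at all 3 times, those of SLT2 separate at 120 min, and those of PIR1 are lower at each later time in both strains.

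Change over time was tested as a slope from 60 to 120 min shared by both strains. None of the 36 slopes passed in limma, where 0.324% of all genes, 18, were called (0.0721% upward and 0.252% downward). At an unadjusted p under 0.05 there were 7, or 19.4%, against 16.2% of all genes. Of these, PIR1, YPS1, RHO1 and SLT2 had negative slopes and WSC2, MKK2 and SCW10 positive ones. PIR1 came nearest to passing. It read 11.64, 11.00 and 10.95 in wild type and 11.61, 11.31 and 11.03 in tra1-2ts, so that each later array read lower in both strains, with a slope of -0.64 ± 0.13 per 60 min (limma adjusted p = 0.0739). YPS1 also read lower on each later array in both strains, with a slope of -0.45 ± 0.13 (adjusted p = 0.156), while WSC2, MKK2 and SCW4 read higher on each later array in both.

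By class, the median change from 60 to 120 min was -0.30 in wild type and -0.13 in tra1-2ts for the wall and surface proteins, of which 2 of 8 read higher at 120 than at 60 min in wild type and 1 of 8 in tra1-2ts. For the enzymes it was 0.06 and 0.03, and for the signalling genes -0.06 and 0.04, against -0.0042 and -0.019 over all genes. The difference between the strains' slopes passed for none of the 36 genes and for 0 of all 5551 in limma, with 7.06% of all genes and 0 of the 36 at an unadjusted p under 0.05. This test has 2 residual degrees of freedom. The smallest adjusted p in the list was 0.691. For SLT2 the 120 min value minus that at 60 min was -0.11 in wild type and -0.88 in tra1-2ts, and for WSC3 it was -0.57 and 0.35. Leaving out single wild-type arrays gave calls of this test, each with a wild-type slope drawn through the remaining 2 arrays. Without 120 min these were WSC3 (limma adjusted p = 0.00568), WSC4 (0.0361) and PST1 (0.0416), where 210 of all genes were called. Without 90 min WSC3 passed (0.0365), where 83 of all genes were called. Without 60 min SLT2 passed (0.0157), where 89 of all genes were called.

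**Figure D3:**
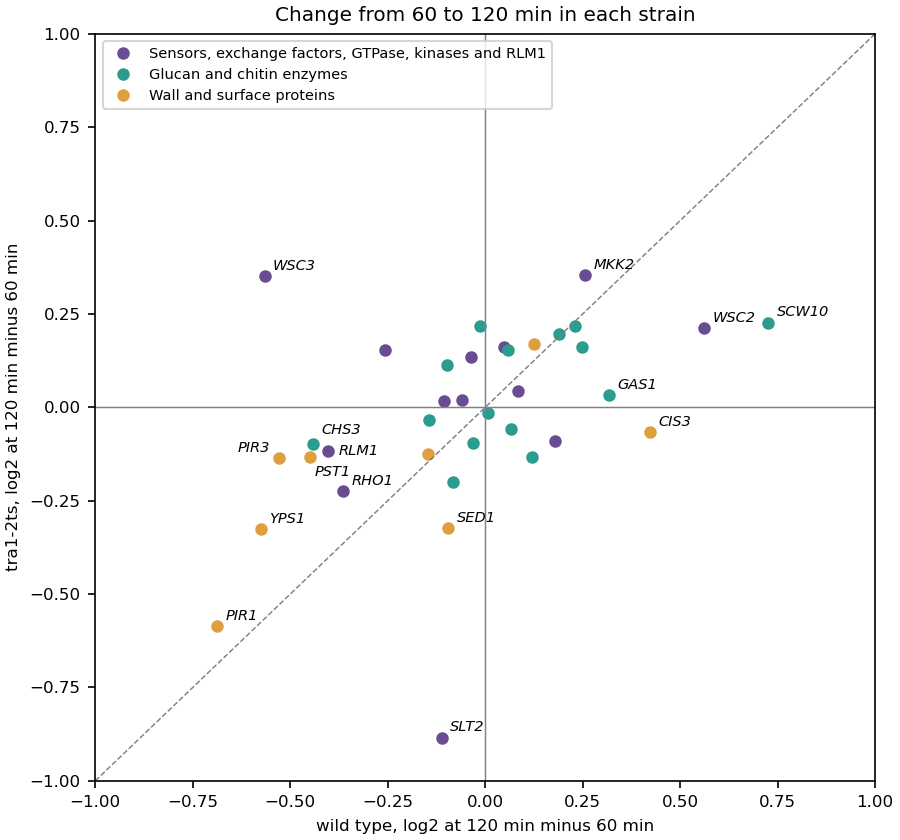
Change in log2 signal from 60 to 120 min for the 36 genes, in wild type (x axis) and tra1-2ts (y axis), 1 array per strain and time, coloured by class; the dashed line marks equal change. PIR1 (-0.69 and -0.59) and YPS1 (-0.57 and -0.33) lie low on both axes, SLT2 low on the tra1-2ts axis, and SCW10 and WSC2 far right.

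A further 57 genes of the same pathway and wall machinery, listed by role, were read beside the 36. Of these, 12 were called higher and 14 lower in tra1-2ts, 45.6% against 40.6% of all genes, with a median of 0.04. Without the tra1-2ts 90 min array 6 were called higher and 12 lower, where the count over all genes went from 2251 to 1561. The 24 further glucan and chitin genes held 5 calls higher and 9 lower, the 19 signalling genes 3 and 4, and the 14 wall and surface genes 4 and 1. The differences of these 14 had a median of 0.07, and 8 were positive and 6 negative. At 60, 90 and 120 min their median was -0.03, 0.20 and -0.01. The higher median of the 8 wall and surface proteins in the list was thus not shared by these 14.

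**Figure D4:**
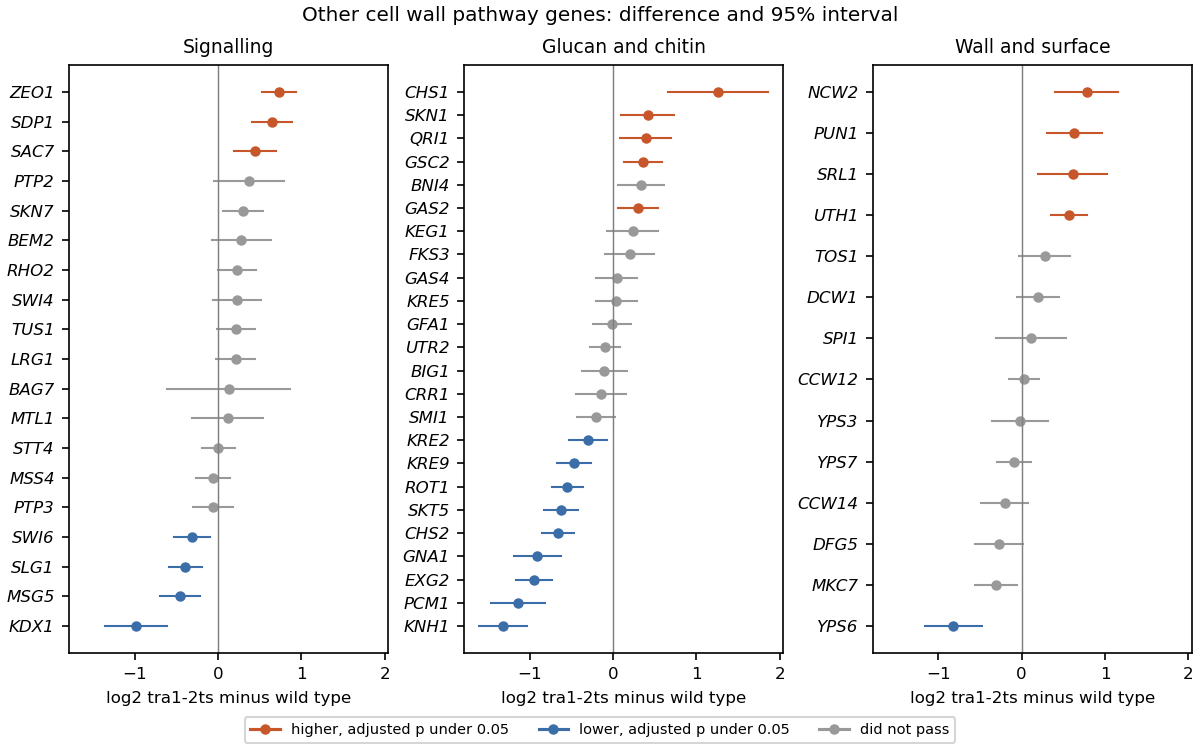
Strain difference (x axis, log2 tra1-2ts minus wild type) with its 95% interval for 57 further cell wall genes, 1 row per gene and 1 panel per role; orange and blue mark genes called higher and lower, grey those that did not pass. CHS1 (1.26) and KNH1 (-1.32) stand at the ends of the glucan and chitin panel.

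In chitin synthesis, CHS2, the gene of the septum chitin synthase, was 1.58-fold lower (limma adjusted p = 0.000591), and SKT5, which encodes the activator of Chs3, was 1.54-fold lower (0.000955). CHS1, the gene of the repair chitin synthase, named after its values were seen, was higher, at 7.78, 7.13 and 6.65 in wild type and 8.76, 8.44 and 8.15 in tra1-2ts (2.40-fold, adjusted p = 0.00557). The enzymes that make the chitin precursor UDP-N-acetylglucosamine also differed among themselves. PCM1 (2.21-fold, adjusted p = 0.000487) and GNA1 (1.88-fold, 0.000733) were lower, while GFA1, which starts the route, differed by -0.01 (interval -0.24 to 0.21) and QRI1, which ends it, was 1.31-fold higher (0.0437). GFA1 and QRI1 were also named after their values were seen. In glucan synthesis KNH1, a relative of KRE9, was 2.49-fold lower (adjusted p = 0.000176), and EXG2, an exoglucanase gene related to EXG1, was 1.93-fold lower (0.000217), against the higher EXG1. BNI4, KEG1 and FKS3 did not pass, with differences of 0.34, 0.24 and 0.20. GSC2, the stress-induced relative of FKS1, named after its values were seen, was 1.29-fold higher (0.0188).

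In signalling, KDX1, the gene of a kinase-like relative of Slt2 and a known Rlm1 target, averaged 5.33 ± 0.35 in wild type and 4.35 ± 0.11 in tra1-2ts, without overlap, and was 1.98-fold lower (limma adjusted p = 0.00201). PST1, another Rlm1 target, was higher, so KDX1 and PST1 did not share a direction. The targets of Rlm1 were not listed or tested as a set. SDP1 and MSG5 encode phosphatases of Slt2, and SDP1 was 1.57-fold higher (adjusted p = 0.00171) and MSG5 1.37-fold lower (0.00826). ZEO1, whose product binds Mid2, was 1.66-fold higher (0.000461), and SAC7, a GTPase-activating protein gene of Rho1, 1.36-fold higher (0.013). PTP2, SKN7 and BEM2 did not pass, with differences of 0.37, 0.30 and 0.28. Of the wall and surface genes, NCW2 was 1.72-fold, PUN1 1.55-fold, SRL1 1.53-fold and UTH1 1.48-fold higher (adjusted p from 0.00213 to 0.027), and YPS6, a yapsin gene like YPS1, was 1.76-fold lower (0.00284). MKC7, TOS1 and DFG5 did not pass, with differences of -0.31, 0.28 and -0.27.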

How the data were processed

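Biotin-labelled target was made from total RNA with a kit for 3' in vitro transcription, per the labels' protocols, and per the submitters' processing notes the authors made the deposited log2 values with RMA in the R package oligo (no version given). RMA corrects background, makes array distributions alike and summarises probes, so a change of all messages at once cannot be seen. Of 6776 probe sets, 5668 name 1 gene, 183 several and 925 none; all 5668 matched RefSeq assembly R64 by gene ID. The brightest set was used for the 91 genes with more than 1, leaving 5551 genes, and columns of other samples numbered 0. Coordinates are left out because the sources give no build for the array.

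Tests used limma 3.58.1 in R 4.3.3, two-sided, and p-values were adjusted by Benjamini-Hochberg across the 5551 genes. They were run on simulated data with independent noise on each array, which cannot check whether the times of a strain are independent. The strain test fitted genotype alone (4 residual degrees of freedom), the slope test genotype and minutes (3), and the slope difference their interaction (2). Intervals are 95% from the moderated fit and are not adjusted for the number of genes, and the number of arrays limits precision. Background level was taken from 4 mouse control probe sets. In the titles the numbers 1, 2 and 3 stand for 120, 90 and 60 min in both strains, and this pairs the arrays by time; deviations from strain means correlated across genes with r of 0.31, 0.066 and 0.33 at 60, 90 and 120 min, and a fit with that block was an alternative. The others were time as a covariate, other scalings, filters on low genes, moderation, probe set choice and thresholds, and arrays or times left out.

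The 36 genes and the lists of further genes were chosen with earlier results of these data known. All 36 could be named; of the further genes, up to 6 called ones with the smallest p and 3 uncalled ones with the largest difference per list were named, besides SLG1's relative MTL1 and those said in the text to have been chosen after their values were seen.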

Additional observations from a re-analysis of the deposited data

How the results depend on the processing

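All 15 calls kept their direction, and 7 of them (WSC4, CHS7, GAS3, EXG1, SCW4, SCW10 and PST1) kept their side of the 0.05 threshold under every other scaling, filter, model and left-out array or time that was run; the lower quartile filter removed WSC4 itself. A stricter threshold of 0.01 left 7 genes higher, 2 of them wall and surface proteins, and 3 lower, all of them enzymes, with no signalling gene lower. Of the further pathway genes it left 6 higher and 12 lower. The count over all genes at 0.01 was not taken. Asking for 2-fold left 2 higher and 0 lower, namely 0 signalling genes, 1 enzyme and 1 wall protein higher, with 0 signalling genes and 0 enzymes lower, and 1 higher and 2 lower among the further genes. Quantile normalization left 0 signalling genes lower. The split over all genes moved with the scaling, from 1014 higher and 1237 lower as deposited. It was 1170 and 1145 after quantile normalization, where 14 of the list were higher and 3 lower. With arrays centred on their medians it was 1248 and 1114, where 13 of the list were higher and 4 lower. With the time point as a paired replicate block, 13 of the list were higher and 5 lower, and with a linear time covariate 13 and 4. No count over all genes was set beside these, so a gain of the list itself was not tested. Over the fits that left out 1 array or 1 time, where 1004 to 2214 of all genes were called, 5 to 11 genes were higher and 2 to 5 lower. By class these were 1 to 3 and 0 to 2 for signalling, 3 to 4 and 2 to 4 for enzymes and 1 to 5 and 0 for wall proteins, and 3 to 14 and 10 to 15 for the further genes. At a threshold of 0.2, 1 shared slope was rising and 2 falling, and with arrays left out both stayed at 0. The slope difference gave 0 to 3 genes larger and 0 to 1 smaller in tra1-2ts with 1 array left out. Those of these fits with a call in the list called 83 to 210 of all genes. The block gave 0 slope differences. BGL2 reversed to 0.0084 with arrays centred on medians. With 1 array left out and then with 1 time left out, differences of genes that did not pass changed sign. WSC2 ranged from -0.0244 to 0.256 and from -0.0394 to 0.213. WSC3 ranged from -0.438 to -0.0378 and from -0.434 to 0.0251, MID2 ranged from -0.0439 to 0.0643 and from -0.0721 to 0.0935, FKS1 ranged from -0.0237 to 0.0805 and from -0.00377 to 0.0794, KRE6 ranged from -0.302 to 0.0424 and from -0.351 to 0.0704, BGL2 ranged from -0.0609 to 0.00351 and from -0.0785 to 0.035 and PIR1 ranged from -0.0284 to 0.341 and from 0.0223 to 0.193. Where a value changed, the cause was not tested. Signal over background limits most the values of WSC3 and WSC4, the dimmest of the 36.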
